A study of Mus musculus with 9 samples.

Results

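The genes described here encode the matrix metalloproteinases (MMPs), the ADAMTS proteases with their ADAMTS-like relatives, and the tissue inhibitors of metalloproteinases (TIMPs). They were taken by symbol, as every gene of the mouse liver table named Mmp, Timp, Adamts or Adamtsl followed by a number. This rule found 51 of the 21873 genes, namely 23 MMP, 4 TIMP, 19 ADAMTS and 5 ADAMTSL genes. Livers came from male C57BL/6 mice that were 8 weeks old when the injections began. The control group (n = 3) received normal saline and the TAA group (n = 3) received thioacetamide, a hepatotoxin that the liver converts to reactive products, by intraperitoneal injection every 3 days over 8 weeks. The recovery group (n = 3) received the same thioacetamide course and was then kept without injections for another 8 weeks. At collection the recovery mice were thus older by 8 weeks than the others, no saline group of the same age was used here, and age and withdrawal cannot be told apart. Each library was whole liver of 1 mouse, so that fewer cells of a type and less RNA per cell cannot be told apart, and P values measure the spread among these mice.

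MMPs are zinc-dependent endopeptidases that cleave collagens, elastin, proteoglycans and many secreted proteins. Most are made as inactive precursors whose propeptide must be removed by plasmin, furin or another MMP, and TIMPs then block the active site. ADAMTS proteases carry thrombospondin repeats that hold them in the matrix, and they process procollagens, cut large proteoglycans or cleave von Willebrand factor, whereas ADAMTSL proteins share these repeats but have no protease domain. In fibrotic liver, scar collagen is laid down mainly by activated stellate cells and portal fibroblasts, and MMPs and TIMPs are studied for how they balance its removal.

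Levels were given as FPKM, that is, fragments mapped to a gene relative to its length and to the M fragments of the library, a scale on which genes can be compared, and each library was scaled here by its median-of-ratios factor. The estimated depth of a library was 26.8 to 40.7 M fragments, so that an FPKM of 0.1 in a gene of 2 kb stood for 5.35 to 8.13 fragments. The scaling lowered the TAA values relative to the control values, by -0.64 on the log2 scale for every gene, and all changes are given relative to it. Genes averaging 0.1 FPKM or more over all 9 libraries, as deposited, were compared with limma (a moderated linear model) on log2(scaled FPKM + 0.1). A gene that was high in the TAA group only could pass this filter through that group. Each log2 fold change is given ± SE, and the adjustment of P values (Benjamini-Hochberg) covered all 14094 tested genes. A gene was called a differentially expressed gene (DEG) at an adjusted p under 0.05 and a fold change of at least 2. Because of the added 0.1, fold changes of scarce genes are understated. Of the 51 members, 37 passed the filter, and 14 did not: Adamts8, Adamts16, Adamts17, Adamts18, Adamts19, Adamts20, Mmp1a, Mmp1b, Mmp10, Mmp16, Mmp20, Mmp21, Mmp25 and Timp4. None of these 14 was above 0.319 scaled FPKM in any mouse, and 3 of them (Mmp1a, Mmp1b and Adamts18) were at 0 in all 9 libraries.

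A pair of libraries stood apart from their groups. Control mouse 1 was high in some macrophage genes, such as Gpnmb at 22.2 scaled FPKM against 0.188 and 0.102 in the other control mice. Others were alike, such as Cd9 at 8.67 against 8.74 and 8.38. Its summed Kupffer cell markers were 34.5 against a highest control value of 110. The endothelial sum of this mouse was 49.2 against 92.0 and 88.9, and its neutrophil sum 0.801 against 4.15 and 3.93. TAA mouse 3 held skeletal muscle transcripts, with 6 marker genes summing to 35.2 scaled FPKM. In hepatocyte markers all libraries were high, with sums of 21080 to 46760 scaled FPKM. Where leaving out 1 mouse changed the call of a member, the value obtained without that mouse is given.

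Of the 23 MMP genes, 10 lie side by side on chromosome 9 within 455 kb, in the order Mmp13, Mmp12, Mmp1b, Mmp3, Mmp1a, Mmp10, Mmp8, Mmp27, Mmp20 and Mmp7. Their promoters are shown because they share sequence features that few other members had. RefSeq promoter windows (GRCm38.p6, 250 bases before to 50 after a transcript start) were found for 36 of the 51 members, including all 10 genes of the cluster. They were searched on both strands for TGANTCA, a pattern that includes the site bound by AP-1 (Fos and Jun), and for TATAAA, the TATA box. The N stands for any base. Of all 32851 windows, 7.81% held TGANTCA and 13.62% held TATAAA. In the cluster, 8 of the 10 genes had TGANTCA in at least 1 of their windows, and outside it 0 of 26 members did. TATAAA was found in 9 of the 10 cluster genes and in 3 of the other 26 members. The TGANTCA matches of the cluster lay 35 to 95 bases before the start. That of Mmp20 read TGAATCA, and the others read TGAGTCA or TGACTCA. Matches to the second motif were counted anywhere in the window. Their offsets from the start were -123 and -26 in Mmp7, -58 in Mmp20, -49 in Mmp1b, -29 in Mmp10 and -28 in Mmp1a. In Mmp13 and Mmp3 they were -16 and -7. The Mmp12 match lay after the start, at 4, and that of Mmp8 was on the opposite strand, at -3. Outside the cluster the offsets were -32 (Adamts1), -30 (Adamtsl2) and -70 (Mmp21). Whether any serves as a TATA box was not tested. The windows below are those of Mmp7, Mmp12 and Mmp13, which rose in the TAA group, of Mmp3, which was tested and not called, and of Mmp1a, which was at 0 throughout. The capitals mark the TGANTCA and TATAAA matches.
Mmp7, chr9:7691840-7692139, plus strand: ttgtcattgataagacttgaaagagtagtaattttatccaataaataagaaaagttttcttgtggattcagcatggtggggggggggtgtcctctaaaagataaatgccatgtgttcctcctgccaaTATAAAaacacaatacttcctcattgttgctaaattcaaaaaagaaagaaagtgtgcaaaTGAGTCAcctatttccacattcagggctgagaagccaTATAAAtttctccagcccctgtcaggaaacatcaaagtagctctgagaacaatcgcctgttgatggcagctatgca
Mmp12, chr9:7347124-7347423, plus strand, the second of 2 listed starts: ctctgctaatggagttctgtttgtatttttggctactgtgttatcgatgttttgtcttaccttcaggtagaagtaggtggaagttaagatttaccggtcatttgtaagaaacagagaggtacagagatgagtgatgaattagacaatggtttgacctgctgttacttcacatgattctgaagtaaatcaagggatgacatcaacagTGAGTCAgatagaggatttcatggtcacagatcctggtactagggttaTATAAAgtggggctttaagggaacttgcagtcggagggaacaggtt
Mmp13, chr9:7272264-7272563, plus strand: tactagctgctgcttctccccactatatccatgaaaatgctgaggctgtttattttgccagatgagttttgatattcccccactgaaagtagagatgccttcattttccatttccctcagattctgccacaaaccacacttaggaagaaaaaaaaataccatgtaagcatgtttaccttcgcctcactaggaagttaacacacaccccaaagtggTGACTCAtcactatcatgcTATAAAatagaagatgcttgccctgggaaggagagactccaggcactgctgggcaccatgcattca
Mmp3, chr9:7445572-7445871, plus strand: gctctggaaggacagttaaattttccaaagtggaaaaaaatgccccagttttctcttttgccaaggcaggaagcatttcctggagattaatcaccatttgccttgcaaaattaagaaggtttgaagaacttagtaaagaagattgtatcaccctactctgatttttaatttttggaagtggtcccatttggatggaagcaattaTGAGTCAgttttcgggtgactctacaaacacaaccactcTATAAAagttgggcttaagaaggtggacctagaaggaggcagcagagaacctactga
Mmp1a, chr9:7463891-7464190, plus strand: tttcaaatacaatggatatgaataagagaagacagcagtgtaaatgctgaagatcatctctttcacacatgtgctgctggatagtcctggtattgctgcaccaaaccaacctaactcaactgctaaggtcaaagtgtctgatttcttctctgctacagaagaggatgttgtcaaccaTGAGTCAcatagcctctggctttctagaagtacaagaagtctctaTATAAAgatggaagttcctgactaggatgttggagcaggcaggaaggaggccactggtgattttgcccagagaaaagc
A match to these letters is a description of the window and does not show that a factor bound there.

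In control liver, few members were abundant. The 5 highest by mean scaled FPKM were Mmp19, Mmp14, Timp3, Mmp11 and Mmp15. The place of Mmp11 rested on control mouse 3 alone, and without that mouse it ranked 20 among the members, at a mean of 0.289. Mmp14, Mmp15 and Mmp19 made up 94.2% of the summed MMP level when Mmp11, which is described separately, was set aside. In the TAA group these 3 genes made up 46.8% of the sum, and Mmp7 had the highest mean of all members. The summed MMP level without Mmp11 was 51.6 ± 1.21 (SD, n = 3) scaled FPKM in control, 94.7 ± 11.6 in TAA and 56.5 ± 2.37 in recovery mice. Without Mmp11, Mmp14, Mmp15 and Mmp19, the MMP sum was 3.0 ± 0.911, 50.4 ± 8.17 and 6.51 ± 1.73 scaled FPKM in these groups. The summed TIMP level was 16.7 ± 2.07, 41.9 ± 11.5 and 20.9 ± 2.21 scaled FPKM. The ADAMTS sum was 10.9 ± 0.585, 28.2 ± 2.51 and 15.3 ± 0.481, and the ADAMTSL sum was 2.8 ± 0.505, 13.2 ± 2.8 and 3.97 ± 0.875. Each sum without Mmp11 was higher in every TAA mouse than in every mouse of the other groups, so that the summed protease and inhibitor levels moved the same way. This did not hold for each gene. In the MMP sum the largest rises of the mean were those of Mmp7 (0.107 to 26.7) and Mmp2 (0.912 to 14.2). Mmp19 was lower in every TAA mouse than in every control mouse, and Mmp14 and Mmp15 overlapped between these groups.

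Comparing the TAA group with the control group, 23 of the 37 tested members were higher, 1 was lower and 13 were not DEGs. Mmp8, Mmp13 and Adamtsl3 averaged under 0.1 scaled FPKM in the control and recovery groups and passed the filter only through their TAA values. So did Timp1, Mmp24 and Adamtsl5, whose control and recovery libraries together averaged under 0.1 FPKM as deposited. The scaled means of these last genes were 0.0659, 0.126 and 0.124 in the control group and 0.112, 0.0878 and 0.0871 in the recovery group. High TAA values were thus a condition of testing all of these members, which bears on the counts given here. The filter was the same for all tested genes. Over all tested genes, 17.0% were called higher and 8.02% lower, or 25.0% in either direction. The members called higher were 8 of 16 tested MMP, 3 of 3 TIMP, 9 of 13 ADAMTS and 3 of 5 ADAMTSL genes, and the median log2 fold change of the 37 tested members was 1.29, against 0.02 over all tested genes. Of the members, 28 of the 37 tested were higher in all TAA mice than in all control mice and 2 were lower, where 32.6% and 31.0% of all tested genes were, and 29 of the 37 had an adjusted p under 0.05, where 54.5% of all tested genes did. With FPKM as deposited 23 of these 24 calls were kept (all but Adamts13) and 5 were added (Adamts1, Adamtsl3, Adamtsl4, Mmp27 and Mmp28). With quantile normalization 14 were kept, those of Adamts3, Adamts4, Adamts10, Adamts14, Adamts15, Adamtsl5, Mmp8, Mmp9, Mmp23 and Mmp24 being lost and Adamts6 being called lower. Comparing the recovery group with the TAA group, 19 tested members were lower, 1 was higher and 17 were not DEGs, with 14.3% of all tested genes called lower and 7.12% higher (21.4% in either direction). Left as deposited, FPKM gave 27 calls, 19 of them among these 20, and quantile normalization gave 15, of which 12 were among these. An adjusted p under 0.05 was found for 30 of the 37, where 50.5% of all tested genes had one, and 27 were lower in all recovery mice than in all TAA mice and 5 higher, where 31.0% and 29.4% were. The median log2 fold change was then -1.0, against -0.01 over all tested genes. The comparisons share the TAA mice, and each member's own values are therefore given for both.

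**Figure D1:**
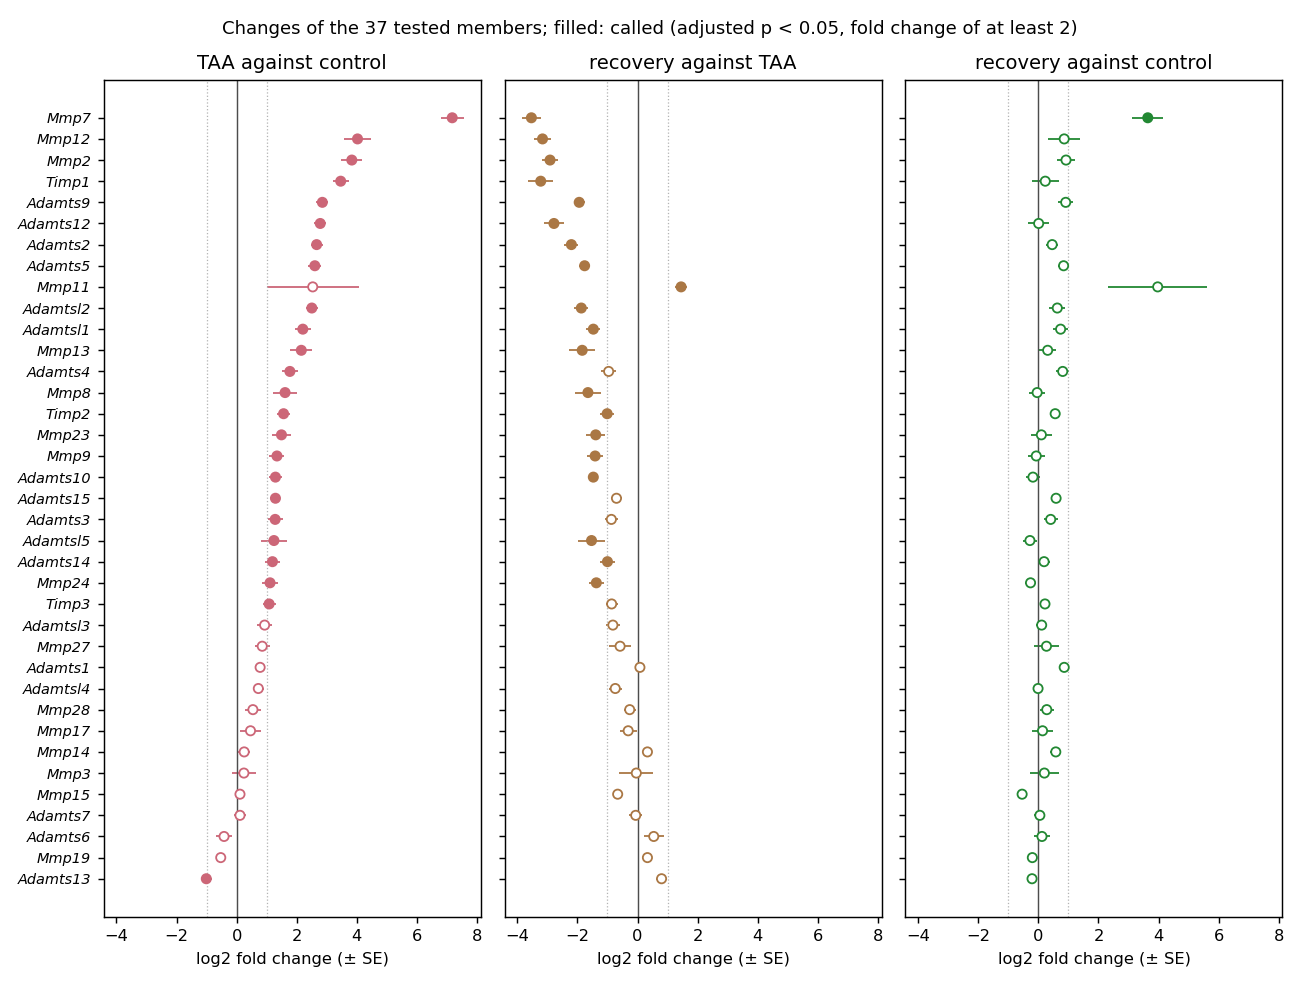
Log2 fold changes with their SE (x axes) of the 37 tested members (rows, in the order of the first panel) for TAA against control mice (left), recovery against TAA mice (middle) and recovery against control mice (right); filled points are DEGs and dotted lines mark a fold change of 2. In the first panel 23 filled points lie to the right, in the second 19 lie to the left with Mmp11 alone on the right, and in the third Mmp7 is the only filled point.

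Both gelatinases, which digest denatured collagen and the collagen IV of basement membranes, rose in the TAA group. Mmp2, made mainly by stellate cells and fibroblasts, was at 0.853, 0.548 and 1.33 in the control mice, 18.7, 8.91 and 15 in the TAA mice and 1.49, 1.75 and 1.93 in the recovery mice (scaled FPKM, as all levels below). Every TAA mouse was far above every control mouse, and the recovery mice lay between the groups without overlapping either. Its log2 fold change was 3.83 ± 0.35 (adjusted p = 9.76e-05, limma) in the TAA group and -2.91 ± 0.26 (adjusted p = 8.37e-05) on recovery. Mmp9, which neutrophils and macrophages carry, was at 0.516, 0.286 and 0.419 in the control mice, 1.34, 0.863 and 1.36 in the TAA mice and 0.304, 0.305 and 0.560 in the recovery mice. It rose by 1.34 ± 0.25 on the log2 scale (adjusted p = 0.00324) and then changed by -1.41 ± 0.27 (adjusted p = 0.00347), and the recovery and control mice overlapped.

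The secreted collagenases, which can cut intact fibrillar collagen, were scarce. Mmp13, the main interstitial collagenase of mice, was at 0.0338, 0.0371 and 0.0391 in the control mice, 0.288, 0.940 and 0.457 in the TAA mice and 0.0301, 0.165 and 0.0410 in the recovery mice. An estimated 2.0 to 3.0 fragments stood behind each control value and 40.4 to 129 behind each TAA value, so the fold change rests on few control fragments. The log2 fold change was 2.15 ± 0.36 (adjusted p = 0.00185), followed by -1.84 ± 0.43 (adjusted p = 0.00848) on recovery. Recovery mouse 2 kept a level above both other recovery mice, but below every TAA mouse. Mmp8, the neutrophil collagenase, was at 0, 0.0410 and 0.0282 in the control mice, 0.118, 0.523 and 0.278 in the TAA mice and 0, 0 and 0.0669 in the recovery mice, with all TAA mice above all others and a level of 0 in control mouse 1 and recovery mice 1 and 2. Its changes were 1.61 ± 0.40 (adjusted p = 0.011) and -1.65 ± 0.43 (adjusted p = 0.0135). The locus that the table gives for Mmp8 is longer than in GENCODE M21 and spans Mmp27, so that reads of these neighbours may not be fully told apart. Mmp1a, annotated as a polymorphic pseudogene, and Mmp1b, the mouse counterparts of human interstitial collagenase, were at 0 in every library.

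Mmp7, or matrilysin, a small MMP of epithelial cells including injured bile ducts, had the largest log2 fold change of the 37 tested members in the TAA group. It was at 0.0233, 0.0427 and 0.254 in the control mice, 31.9, 25.4 and 22.8 in the TAA mice and 1.24, 3.33 and 2.54 in the recovery mice. The TAA and control mice did not overlap, and every recovery mouse lay between them. At the exon length of GENCODE M21 the control values would stand for 0.55 to 7.74 fragments and the TAA values for 1300.0 to 1780.0, so the size of the fold change rests on few control fragments. The rise was 7.17 ± 0.38 on the log2 scale (adjusted p = 1.14e-05) and the change on recovery was -3.53 ± 0.32 (adjusted p = 9.44e-05). Recovery mice remained above control mice by 3.64 ± 0.51 (adjusted p = 0.0249), which made Mmp7 the only member called in that comparison, where 0.993% of all tested genes were DEGs (0.582% higher and 0.412% lower). This last call was lost without control mouse 1 (adjusted p = 0.0617), control mouse 2 (0.0868), recovery mouse 2 (0.103) or recovery mouse 3 (0.10), with log2 fold changes of 3.35, 3.46, 3.35 and 3.54. Control mouse 3, at 0.254, was above the other control mice, but below every recovery mouse. Markers of cholangiocytes, the epithelial cells of bile ducts, moved in parallel, with 5 of 5 tested markers called higher in the TAA group (17.0% of all tested genes, median log2 fold change 3.52). Their summed levels were 15.7 to 20.9, 295 to 442 and 27.9 to 38.4 scaled FPKM in the control, TAA and recovery mice. Most of each sum was Spp1 alone, at 13.8 to 18.0, 274 to 415 and 23.6 to 31.7, so the sums describe mainly this gene. Epcam was at 0.249 to 0.500, 7.65 to 10.3 and 1.10 to 1.52. The part of cholangiocytes in the Mmp7 result was not tested.

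Mmp3, a stromelysin that degrades proteoglycans and activates other MMPs, was not called in any comparison. It was at 0.0985, 0.0545 and 0.115 in the control mice, 0.0964, 0.0379 and 0.302 in the TAA mice and 0, 0.171 and 0.271 in the recovery mice, and the groups overlapped in each comparison (log2 fold change 0.24 ± 0.41, adjusted p = 0.645, TAA group against control group). Mmp10 was under the filter. Mmp12, the macrophage metalloelastase, was at 0.460, 0.0621 and 0.0916 in the control mice, 3.65, 4.70 and 4.04 in the TAA mice and 0.195, 0.440 and 0.553 in the recovery mice. Its rise of 4.02 ± 0.44 (adjusted p = 0.000231) and its change of -3.16 ± 0.29 on recovery (adjusted p = 0.000103) placed every TAA mouse above every other mouse. Control mouse 1, in which Gpnmb and Trem2 were high, had 0.460 against 0.0621 and 0.0916 in the other control mice. Without control mouse 1 the TAA log2 fold change of Mmp12 was 4.58. Of 6 markers of monocyte-derived macrophages, 4 were called higher in the TAA group (17.0% of all tested genes, median log2 fold change 2.51) and Gpnmb (5.02) and Trem2 (3.75) as well without control mouse 1, their sum being 12.9 to 44.6 in the control, 53.9 to 65.3 in the TAA and 17.8 to 25.3 scaled FPKM in the recovery mice, and their part in the Mmp12 result was not tested.

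**Figure D2:**
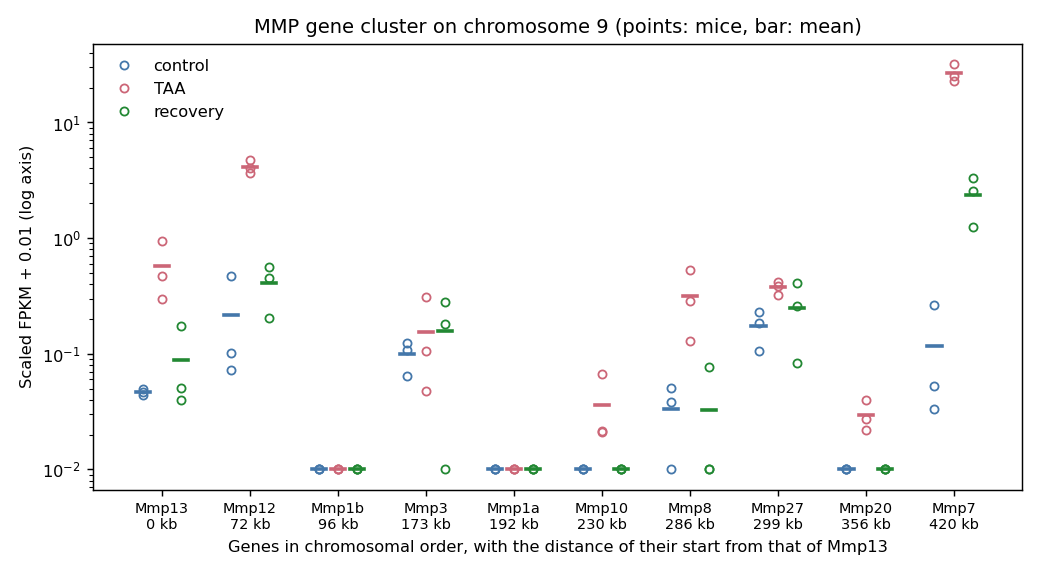
Scaled FPKM + 0.01 (log axis) of the 10 MMP genes of the chromosome 9 cluster in chromosomal order, with the distance in kb of each start from that of Mmp13, and 1 point per mouse with the group mean as a bar. Mmp7, Mmp12, Mmp13 and Mmp8 stand higher in all TAA mice, while Mmp1a and Mmp1b lie at 0 (drawn at 0.01) in all libraries.

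Neighbouring genes of the cluster therefore differed widely. Of the 10 genes, 6 passed the filter and 4 of these (Mmp7, Mmp8, Mmp12 and Mmp13) were called higher in the TAA group. Mean levels in the TAA group ran from 0 for Mmp1a and Mmp1b to 26.7 scaled FPKM for Mmp7. Mmp27, between Mmp8 and Mmp20, was at 0.0954, 0.174 and 0.218 in the control mice, 0.409, 0.311 and 0.374 in the TAA mice and 0.246, 0.0727 and 0.396 in the recovery mice and had a log2 fold change of 0.85 ± 0.25 (adjusted p = 0.0232), under the fold change of 2, but was called with FPKM as deposited (1.31, adjusted p = 0.00254) or a pseudocount of 0.01 (1.18, adjusted p = 0.0328). TGANTCA and TATAAA were both found in the windows of Mmp1a and Mmp1b, which were at 0 throughout, of Mmp3, which was not called, and of Mmp10 and Mmp20, which were too low to be tested. Mmp10 and Mmp20 were above 0 in the TAA mice only, at no more than 0.0564 and 0.0298 scaled FPKM. Mmp8, which rose, had no TGANTCA match in its window. In Mmp12 the matches were in the window of the second start only, and which start was used cannot be read from gene-level FPKM. The table's locus of Mmp7 is also longer than in GENCODE M21, and its annotated exons share 123 bases with the antisense gene AV064505. Mmp12 shares 157 exon bases with Mmp1b on the opposite strand, which was at 0.

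Membrane-type MMPs are anchored at the cell surface. Mmp14, which activates the Mmp2 precursor and cuts fibrillar collagen, was at 11.1, 18.1 and 17.9 in the control mice, 19.9, 15.9 and 19.2 in the TAA mice and 23.4, 22.3 and 23.1 in the recovery mice. The TAA and control mice overlapped, with a log2 fold change of 0.25 ± 0.20 (adjusted p = 0.313), while every recovery mouse exceeded every TAA mouse, by 0.33 ± 0.10 (adjusted p = 0.0326), less than the fold change asked of a DEG and with the opposite sign when FPKM were left as deposited (-0.23, adjusted p = 0.0836). Mmp15 was at 8.87, 7.86 and 7.58 in the control mice, 9.97, 7.27 and 9.26 in the TAA mice and 6.77, 4.67 and 5.29 in the recovery mice, with overlapping TAA and control mice and a difference of -0.66 ± 0.17 between recovery and TAA mice (adjusted p = 0.0142), which was a DEG with FPKM as deposited (-1.21, adjusted p = 0.000567). Mmp24, best known from the nervous system, was low, at 0.171, 0.0997 and 0.108 in the control mice, 0.314, 0.537 and 0.334 in the TAA mice and 0.103, 0.0772 and 0.0827 in the recovery mice. It rose by 1.11 ± 0.26 (adjusted p = 0.0084) and changed by -1.37 ± 0.25 on recovery (adjusted p = 0.0028), but the first call was lost without TAA mouse 2 (log2 fold change 0.92, adjusted p = 0.0252). Its exons share 637 bases with BC029722 on the opposite strand, at 5.15 to 12.5 FPKM as deposited and also highest in the TAA mice, and reads in the shared bases cannot be told apart. Mmp17 was not a DEG in any comparison, and Mmp16 and Mmp25 were under the filter.

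**Figure D3:**
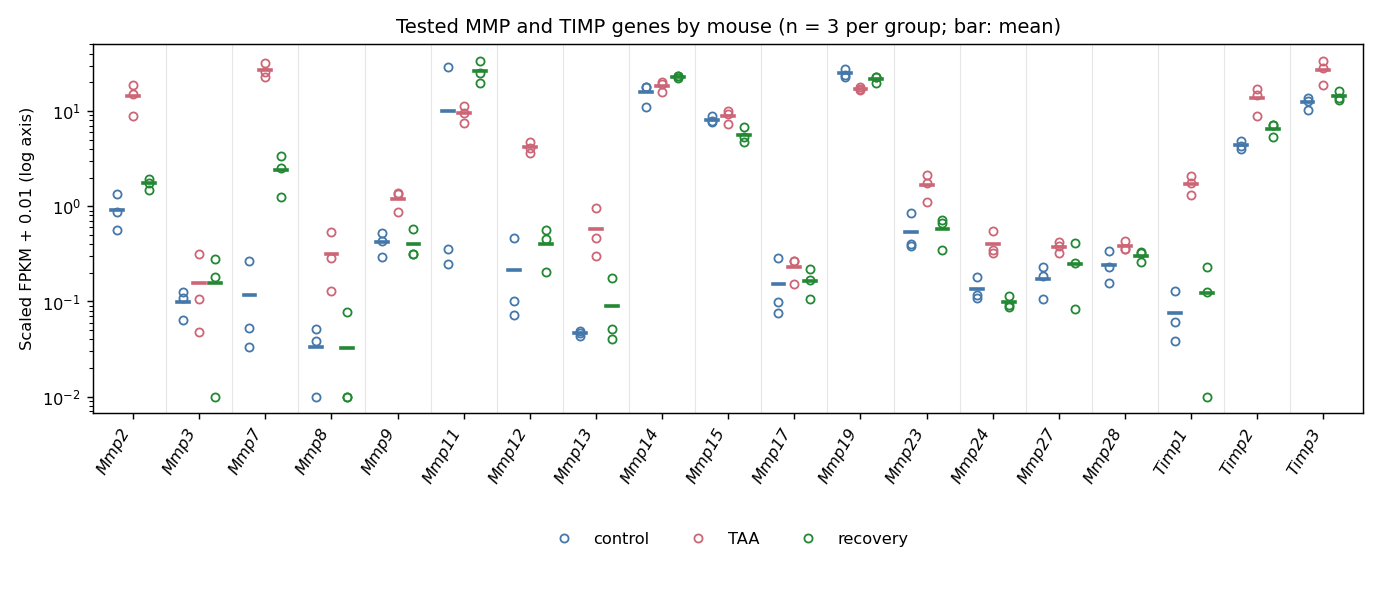
Scaled FPKM + 0.01 (log axis) of the tested MMP and TIMP genes, with 1 point per mouse and the group mean as a bar. TAA points of Mmp2, Mmp7, Mmp8, Mmp9, Mmp12, Mmp13, Mmp23, Mmp24, Mmp27, Mmp28 and Timp1 to Timp3 lie above all control points, whereas Mmp14, Mmp15, Mmp17 and Mmp3 overlap between the TAA and control mice and Mmp11 splits the control mice.

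Among the other MMPs, Mmp19, which is made in many tissues and was the highest member in control liver, was at 27.4, 24.1 and 22.9 in the control mice, 17.7, 17.2 and 16.5 in the TAA mice and 22.5, 19.5 and 22.6 in the recovery mice. Every TAA mouse was below every control mouse, by -0.53 ± 0.09 (adjusted p = 0.00241), and the recovery mice were above the TAA mice by 0.33 ± 0.09 (adjusted p = 0.0208). Neither difference reached a fold change of 2, and both changed sign when FPKM were left as deposited (0.11, adjusted p = 0.266, and -0.23, adjusted p = 0.0544). Its exons share 789 bases with Tmem198b on the opposite strand. Mmp23, a short MMP with a membrane anchor at its amino terminus, was at 0.371, 0.396 and 0.830 in the control mice, 2.10, 1.09 and 1.74 in the TAA mice and 0.338, 0.715 and 0.653 in the recovery mice. It rose by 1.49 ± 0.33 (adjusted p = 0.007) and changed by -1.39 ± 0.31 on recovery (adjusted p = 0.00742). Mmp28 and Mmp27 were not DEGs in any comparison under the scaling used. With FPKM as deposited Mmp28 was called in the TAA group (1.02, adjusted p = 0.00932), and Mmp27 there and on recovery (-1.01, adjusted p = 0.0428). Of the remaining genes, Mmp20 and Mmp21 were under the filter.

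Mmp11, or stromelysin 3, split the control group. It was at 0.342, 0.237 and 29.2 in the control mice, 9.55, 7.56 and 11.2 in the TAA mice and 33.7, 25.0 and 19.8 in the recovery mice, so that control mouse 3 was about as high as the recovery mice and the other control mice were near 0. Against the control mice, the TAA mice gave 2.53 ± 1.53 (adjusted p = 0.2) and the recovery mice 3.97 ± 1.64 (adjusted p = 0.213), but without control mouse 3 these were 4.61 (adjusted p = 4.59e-05) and 6.05 (adjusted p = 0.0140). The recovery mice were above the TAA mice by 1.45 ± 0.21 (adjusted p = 0.000942), the only member called higher on recovery, and not a DEG when FPKM were left as deposited (0.89, adjusted p = 0.00762) or when all 9 libraries entered the fit (adjusted p = 0.404). Annotated exons of Mmp11 share 155 bases with Chchd10, a mitochondrial gene on the opposite strand, which was at 338 to 399 in the control, 92.9 to 111 in the TAA and 242 to 358 scaled FPKM in the recovery mice. In 7 libraries Mmp11 was between 7.42% and 10.3% of the Chchd10 level, and in control mice 1 and 2 it was 0.0912% and 0.0595%. Whether reads were counted by strand is not given in the sources used here, so reads of the genes in the shared bases cannot be told apart, and the part of Chchd10 in these Mmp11 values was not tested.

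**Figure D4:**
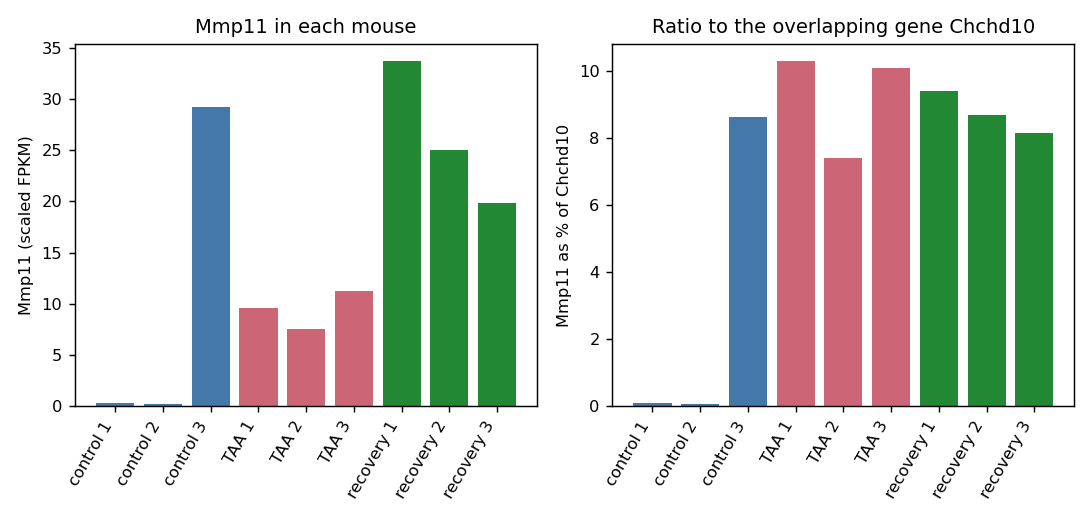
Mmp11 in scaled FPKM (left) and as a percentage of the overlapping gene Chchd10 (right), with 1 bar per mouse. Control mice 1 and 2 are near 0 in both panels, and the other 7 mice lie between 7.42% and 10.3% on the right although their Mmp11 levels range from 7.56 to 33.7.

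All 3 tested inhibitors rose in the TAA group. Timp1, the inducible TIMP and a common serum marker of fibrosis, was at 0.0505, 0.0288 and 0.118 in the control mice, 1.29, 1.74 and 2.08 in the TAA mice and 0, 0.220 and 0.116 in the recovery mice. Every TAA mouse was above every other mouse, and the recovery and control mice overlapped. Its log2 fold changes were 3.46 ± 0.27 (adjusted p = 5.24e-05) and -3.22 ± 0.41 (adjusted p = 0.000502). An estimated 0.774 to 3.0 fragments stood behind each control value and 60.1 to 97.9 behind each TAA value. Timp2, which also helps Mmp14 to activate Mmp2, was at 3.95, 4.29 and 4.86 in the control mice, 16.9, 8.91 and 14.8 in the TAA mice and 5.31, 7.13 and 7.08 in the recovery mice. It rose by 1.56 ± 0.23 (adjusted p = 0.000959). On recovery Timp2 changed by -1.01 ± 0.24 (adjusted p = 0.00924), a call lost without TAA mouse 1 (-0.82, adjusted p = 0.0306), TAA mouse 3 (-0.92, adjusted p = 0.0413) or recovery mouse 1 (-0.87, adjusted p = 0.0315), where the fold change fell under 2.

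Timp3, which binds to the matrix and also inhibits ADAM and ADAMTS proteases, was the most abundant inhibitor, at 10.4, 13.8 and 12.7 in the control mice, 33.4, 18.5 and 28.1 in the TAA mice and 13.7, 16.0 and 13.2 in the recovery mice. It rose by 1.08 ± 0.22 (adjusted p = 0.0043), with a fold change under 2 without control mouse 1 (0.96, adjusted p = 0.0145) or TAA mouse 1 (0.90, adjusted p = 0.0139). The difference of -0.86 ± 0.20 between recovery and TAA mice (adjusted p = 0.0095) did not reach a fold change of 2, and did so without TAA mouse 2 (-1.10, adjusted p = 0.000982) or with FPKM as deposited (-1.42, adjusted p = 0.000556). Its exons share 1733 bases with Syn3 on the opposite strand, which was below 0.85 FPKM. TAA mouse 2 had the lowest Timp2 and Timp3 of its group and also the lowest Mmp2, Adamts2 and Adamtsl2. Timp4 was under the filter.

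The procollagen N-proteinases remove the amino-terminal propeptides of fibrillar procollagens. Adamts2, their most abundant member, was at 0.674, 0.711 and 0.810 in the control mice, 5.61, 3.85 and 6.25 in the TAA mice and 0.792, 1.06 and 1.32 in the recovery mice. It rose by 2.66 ± 0.20 (adjusted p = 4.12e-05) and changed by -2.2 ± 0.23 on recovery (adjusted p = 0.000205), and recovery mouse 1 lay within the control range. Adamts3, which also activates the lymphatic growth factor VEGF-C, was at 0.0920, 0.0852 and 0.184 in the control mice, 0.369, 0.499 and 0.417 in the TAA mice and 0.146, 0.194 and 0.227 in the recovery mice. Its rise was 1.28 ± 0.25 (adjusted p = 0.00374), and its difference of -0.87 ± 0.22 on recovery (adjusted p = 0.0122) was under the fold change of 2, which it passed with FPKM as deposited (-1.31, adjusted p = 0.00145) or a pseudocount of 0.01 (-1.15, adjusted p = 0.0159). Adamts14 was at 0.117, 0.216 and 0.168 in the control mice, 0.540, 0.361 and 0.639 in the TAA mice and 0.184, 0.207 and 0.210 in the recovery mice, with changes of 1.19 ± 0.26 (adjusted p = 0.00636) and -1.0 ± 0.24 (adjusted p = 0.00893). The second call was lost without TAA mouse 1 (-0.96, adjusted p = 0.0333), TAA mouse 3 (-0.86, adjusted p = 0.0295) or recovery mouse 1 (-0.97, adjusted p = 0.0259). All 3 of these enzymes thus rose in the TAA group, but with quantile normalization Adamts3 (0.32, adjusted p = 0.318) and Adamts14 (0.25, adjusted p = 0.401) did not pass the test.

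The proteoglycanases cut versican, aggrecan and related proteoglycans. Adamts9 was at 0.456, 0.252 and 0.322 in the control mice, 3.21, 3.01 and 2.91 in the TAA mice and 0.776, 0.545 and 0.878 in the recovery mice, a rise of 2.85 ± 0.20 (adjusted p = 3.16e-05) with a change of -1.94 ± 0.18 on recovery (adjusted p = 0.000118). Adamts5, a major aggrecanase, was at 0.299, 0.407 and 0.445 in the control mice, 3.45, 2.19 and 2.92 in the TAA mice and 0.836, 0.766 and 0.684 in the recovery mice. It rose by 2.60 ± 0.22 (adjusted p = 6.65e-05) and changed by -1.76 ± 0.19 on recovery (adjusted p = 0.000233). In both genes every recovery mouse was above every control mouse, by 0.91 ± 0.25 (adjusted p = 0.1) and 0.84 ± 0.18 (adjusted p = 0.0666), neither of which passed the test. Adamts4, also an aggrecanase, was at 0.0308, 0.0979 and 0.0908 in the control mice, 0.624, 0.374 and 0.470 in the TAA mice and 0.240, 0.166 and 0.194 in the recovery mice. Its rise was 1.77 ± 0.27 (adjusted p = 0.00119), while the difference of -0.96 ± 0.24 on recovery (adjusted p = 0.0111) was just under a fold change of 2 and passed it without TAA mouse 2 (-1.10, adjusted p = 0.0117) or recovery mouse 1 (-1.05, adjusted p = 0.0171). Adamts15 was at 0.422, 0.449 and 0.430 in the control mice, 1.25, 1.06 and 1.32 in the TAA mice and 0.602, 0.772 and 0.744 in the recovery mice, with a rise of 1.29 ± 0.16 (adjusted p = 0.000481) and a difference of -0.70 ± 0.17 on recovery (adjusted p = 0.0108). The exons of Adamts9 share 1381 bases with A730049H05Rik on the opposite strand, which was at most 0.425 FPKM. Of the 5 tested proteoglycanases, 4 thus rose and 2 of these fell past the fold change of 2 on recovery. With FPKM as deposited all 4 fell past it (Adamts4 -1.40, adjusted p = 0.00134, and Adamts15 -1.22, adjusted p = 0.000653), and with quantile normalization the rises of Adamts4 (0.79) and Adamts15 (0.54) were under it.

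Adamts1, the most abundant proteoglycanase, did not follow this course. It was at 4.04, 3.69 and 3.17 in the control mice, 6.16, 6.46 and 6.21 in the TAA mice and 6.55, 6.87 and 6.53 in the recovery mice, and every recovery mouse was above every TAA mouse and every TAA mouse above every control mouse. The TAA group was above the control group by 0.78 ± 0.12 (adjusted p = 0.00119), and the recovery group was above the control group by 0.86 ± 0.11 (adjusted p = 0.0219), with neither reaching a fold change of 2 and the latter adjusted p rising to 0.103 at most when 1 mouse was left out. With FPKM as deposited the first difference was 1.40 (adjusted p = 4.28e-05), a DEG. Recovery and TAA mice differed by 0.08 ± 0.09 (adjusted p = 0.479), and by -0.47 (adjusted p = 0.00297) with FPKM as deposited, so that the order of these groups depended on the scaling. Adamts1 and Adamts5 lie 53.1 kb apart on chromosome 16. Adamts5 fell on recovery, whereas Adamts1 gave no fall under the scaling used.

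**Figure D5:**
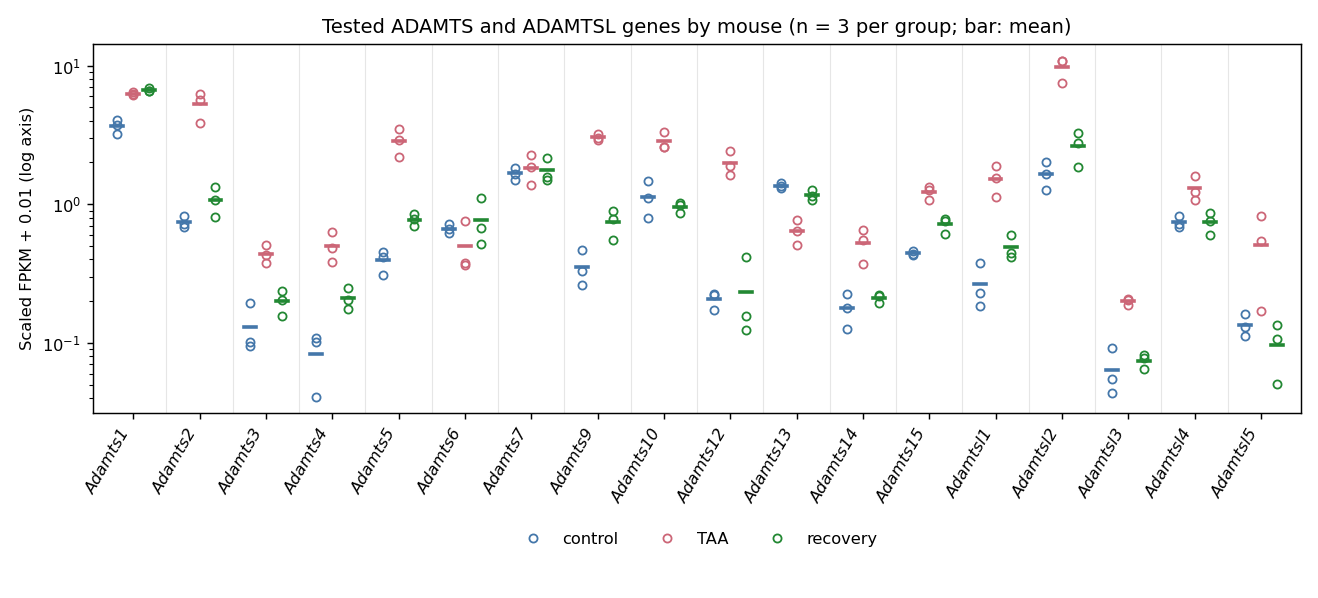
Scaled FPKM + 0.01 (log axis) of the tested ADAMTS and ADAMTSL genes, with 1 point per mouse and the group mean as a bar. Recovery points of most genes lie beside the control points, Adamts1 keeps its recovery points at 6.53 to 6.87 above the TAA points, and Adamts13 is the only gene called lower in the TAA mice.

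Of the other ADAMTS genes, Adamts12, an enzyme of mesenchymal cells that cleaves the cartilage protein COMP, was at 0.216, 0.211 and 0.163 in the control mice, 2.40, 1.88 and 1.61 in the TAA mice and 0.146, 0.113 and 0.405 in the recovery mice. It rose by 2.78 ± 0.20 (adjusted p = 3.69e-05) and changed by -2.78 ± 0.34 on recovery (adjusted p = 0.000386), which placed recovery and control mice at overlapping levels. Adamts10, which binds fibrillin microfibrils, was at 1.46, 0.787 and 1.11 in the control mice, 2.59, 2.56 and 3.32 in the TAA mice and 1.02, 0.978 and 0.857 in the recovery mice, with changes of 1.29 ± 0.23 (adjusted p = 0.00235) and -1.47 ± 0.16 (adjusted p = 0.00022). Adamts13, the von Willebrand factor-cleaving protease that stellate cells of the liver make, was at 1.29, 1.42 and 1.35 in the control mice, 0.498, 0.632 and 0.754 in the TAA mice and 1.26, 1.06 and 1.14 in the recovery mice. It fell by -1.01 ± 0.18 (adjusted p = 0.00251), and the difference on recovery was 0.80 ± 0.19 (adjusted p = 0.00914), without a fold change of 2. The fall was under a fold change of 2 without control mouse 2 (-0.98, adjusted p = 0.0113) or TAA mouse 1 (-0.88, adjusted p = 0.00957), and did not pass the test with FPKM as deposited (-0.44, adjusted p = 0.0845). Stellate cell markers went the other way, with 5 of 7 called higher in the TAA group, where 17.0% of all tested genes were (Pdgfrb 2.21, Acta2 2.15, Lrat 1.48) and sums of 38.7 to 52.9 in the control, 98.2 to 101 in the TAA and 39.1 to 46.1 scaled FPKM in the recovery mice. Adamts6 and Adamts7 were not DEGs, and their groups overlapped in each comparison. With quantile normalization, however, Adamts6 was called lower in the TAA group (-1.26, adjusted p = 0.0125) and higher on recovery (1.24, adjusted p = 0.0284).

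ADAMTS-like proteins bind fibrillin and other matrix components without cutting them. Adamtsl2, a regulator of TGF-beta availability at microfibrils, was the most abundant of them, at 1.25, 1.64 and 2.02 in the control mice, 10.8, 7.47 and 10.8 in the TAA mice and 1.85, 2.74 and 3.24 in the recovery mice. It rose by 2.50 ± 0.21 (adjusted p = 7.21e-05) and changed by -1.87 ± 0.23 on recovery (adjusted p = 0.000396). Adamtsl2 lies 69.8 kb from Adamts13 on chromosome 2, and these neighbours changed in opposite directions in the TAA group. Adamtsl1 was at 0.218, 0.173 and 0.369 in the control mice, 1.54, 1.12 and 1.87 in the TAA mice and 0.437, 0.406 and 0.593 in the recovery mice, with changes of 2.2 ± 0.27 (adjusted p = 0.000419) and -1.47 ± 0.23 (adjusted p = 0.00128). Adamtsl5 was at 0.152, 0.101 and 0.119 in the control mice, 0.530, 0.158 and 0.809 in the TAA mice and 0.0403, 0.0969 and 0.124 in the recovery mice, with TAA mouse 2 close to the control mice. Its changes of 1.24 ± 0.44 (adjusted p = 0.0461) and -1.53 ± 0.46 (adjusted p = 0.0255) depended on single mice. The first was lost without each mouse except TAA mouse 2 (adjusted p of 0.0710, 0.112, 0.0968, 0.127 and 0.134) and the second without TAA mouse 1, TAA mouse 3, recovery mouse 1 or recovery mouse 2 (0.0767, 0.0799, 0.0750 and 0.0573). Adamtsl3 and Adamtsl4 differed by 0.93 ± 0.24 (adjusted p = 0.0123) and 0.72 ± 0.19 (adjusted p = 0.0141) in the TAA group, both under a fold change of 2. Adamtsl3 passed it without control mouse 1 (1.06, adjusted p = 0.0128) or with a pseudocount of 0.01 (1.73, adjusted p = 0.0174), and with FPKM as deposited Adamtsl3 (1.28, adjusted p = 0.00177) and Adamtsl4 (1.31, adjusted p = 0.000995) were both DEGs.

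Following the 23 members that rose in the TAA group into recovery, 18 fell and were not DEGs against the control group, Mmp7 fell and stayed above the control group, and 4 (Adamts3, Adamts4, Adamts15 and Timp3) were not called lower. These 4 were all called lower with FPKM as deposited (-1.42 to -1.22), so that the split into 18 and 4 depended on the scaling. Of all tested genes, only 0.993% were DEGs between the recovery and control groups, so that not being one says little. The 23 were picked for high TAA values, and the same TAA mice enter the fall and the gap given next. Neither was counted over all genes called higher in the TAA group, so these numbers are descriptions. The recovery mean of these 23 kept between -14.4% and 35.1% of the gap that separated the TAA from the control mean, with a median of 8.02%. In 14 of them less than 10% of that gap was left, and in 4 more than 20%: Adamts15 (35.1%), Adamts4 (30.5%), Timp2 (23.4%) and Adamts3 (22.2%). Over the 37 tested members, 10 were higher in all recovery mice than in all control mice and 3 were lower, where 14.6% and 15.6% of all tested genes were. The median log2 fold change between the recovery and control groups was 0.23, against 0.01 over all tested genes, and 2 members (Mmp7 and Adamts1) had an adjusted p under 0.05, where 2.70% of all tested genes did.

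Proteins that activate MMP precursors changed in both directions. Of 12 genes of this list, 3 were called higher and 3 lower in the TAA group (median log2 fold change -0.61). The counts of this and the following lists stand beside 17.0% of all tested genes called higher and 8.02% lower in the TAA group, and 7.12% higher and 14.3% lower on recovery. Plat, the tissue-type plasminogen activator, was at 0.182, 0.265 and 0.154 in the control mice, 7.28, 11.5 and 9.68 in the TAA mice and 0.553, 0.833 and 0.560 in the recovery mice. It rose by 4.99 (adjusted p = 5.61e-06), changed by -3.67 on recovery (adjusted p = 1.63e-05) and stayed above the control group by 1.31 (adjusted p = 0.0439). This last call was lost without any 1 of the 6 mice (adjusted p of 0.0700 to 0.130) and with the replicate block (adjusted p = 0.0636). Plaur, the urokinase receptor, rose by 2.36 and Plau, urokinase itself, by 1.01 (adjusted p = 0.000276 and 0.00158), the latter being under a fold change of 2 without control mouse 2 (0.96), control mouse 3 (0.93) or TAA mouse 1 (0.99). Plg, the hepatocyte-made precursor of plasmin and the most abundant gene of the list, fell from 590 to 662 in the control mice to 226 to 266 in the TAA mice (-1.35, adjusted p = 5.69e-05), and Klkb1 and Pcsk6 fell by 2.27 and 1.74 on the log2 scale (adjusted p = 3.47e-05 and 1.21e-05). The fall of Plg was under a fold change of 2 with FPKM as deposited (-0.72, adjusted p = 0.000616) and did not pass the test with quantile normalization (-0.07, adjusted p = 0.547). On recovery 3 of the 12 were called higher and 4 lower. Among these was Serpine2, an inhibitor of plasminogen activators and thrombin, at 7.28, 5.55 and 7.22 in the control mice, 10.7, 5.71 and 9.76 in the TAA mice and 1.81, 1.26 and 1.68 in the recovery mice. It did not pass the test in the TAA group (adjusted p = 0.264), but fell by 2.36 on recovery (adjusted p = 0.000197) to 2.02 below the control group (adjusted p = 0.00975).

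Other inhibitors and docking proteins held 9 tested genes, of which 3 rose and 1 fell in the TAA group (median log2 fold change -0.15). Thbs1, which activates latent TGF-beta, rose by 2.96, Thbs2 by 1.74 and the hyaluronan receptor Cd44 by 1.09 (adjusted p = 7.42e-05, 0.000605 and 0.00127), Cd44 being under a fold change of 2 without control mouse 1 (0.91). Mug1, a murinoglobulin of the alpha-macroglobulin family that traps proteases in plasma and the most abundant of the list, was at 1523, 1473 and 1705 in the control mice, 208, 174 and 191 in the TAA mice and 1625, 1529 and 1551 in the recovery mice. It fell by 3.04 on the log2 scale (adjusted p = 3.55e-06) and rose by 3.04 on recovery (adjusted p = 3.67e-06). On recovery 1 gene of the list was called higher and 2 lower, and against the control group 0 were DEGs by limma, with 3 of 9 at an unadjusted p under 0.05. The lower scaled levels of this secreted inhibitor and of Plg went with a fall of 3 of 6 hepatocyte markers in the TAA group (Tat -1.65, Apoa1 -1.55, Hnf4a -1.11). With FPKM as deposited Apoa1 (-0.91) and Hnf4a (-0.48) were under a fold change of 2. With quantile normalization Tat (-0.44), Apoa1 (-0.21) and Hnf4a (-0.31) all were, and Ttr was called higher (1.23, adjusted p = 0.000411). The part of hepatocytes in these results was not tested.

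Other metalloproteinases and ADAMTS-related matrix proteins held 11 tested genes, of which 4 rose and 1 fell in the TAA group (median log2 fold change 0.79), the latter near the 8.02% of all tested genes called lower. Thsd4, an ADAMTSL-like microfibril protein, rose by 1.60, Adam19 by 1.53 and Adam12 by 1.39 (adjusted p = 0.00224, 0.000318 and 0.00105), and Papln, the matrix protein papilin, fell by 1.33 (adjusted p = 0.00922). The fall of Papln did not pass the test with FPKM as deposited (-0.77, adjusted p = 0.0717), and with quantile normalization Thsd4 (0.88), Adam19 (0.72) and Adam12 (0.41) were under a fold change of 2. Bmp1, the procollagen C-proteinase and the most abundant of them, was at 34.5, 34.1 and 33.3 in the control mice, 17.6, 16.2 and 18.9 in the TAA mice and 38.4, 28.8 and 27.7 in the recovery mice and differed by -0.95 (adjusted p = 9.43e-05) in the TAA group, just under a fold change of 2, which it passed without TAA mouse 3 (adjusted p = 0.000427). The proteinase for the other end of procollagen was thus lower in every TAA mouse in scaled FPKM, whereas Adamts2, Adamts3 and Adamts14 were higher. On recovery 1 gene of this list was called higher and 4 lower, and against the control group 0 were DEGs by limma, with 1 of 11 at an unadjusted p under 0.05.

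Matrix substrates of these proteases had the highest share of rises among these lists, with 9 of 13 tested genes called higher in the TAA group and a median log2 fold change of 2.62. Col1a1 was at 1.04, 1.01 and 0.995 in the control mice, 77.2, 49.3 and 78.2 in the TAA mice and 1.16, 2.2 and 3.6 in the recovery mice. It rose by 5.91 (adjusted p = 1.65e-06), Col3a1 by 4.95, Col1a2 by 4.54 and Eln, the elastin gene, by 4.21 (adjusted p = 3.94e-06, 8.17e-06 and 3.02e-05). Fn1, fibronectin, which hepatocytes secrete in large amounts, was the most abundant and differed by -0.46 (adjusted p = 0.00892). On recovery 10 of the 13 fell, with a median of -2.46, and 0 were DEGs against the control group by limma, with 4 of 13 at an unadjusted p under 0.05. Vwf, the substrate of Adamts13, differed by -0.03 (adjusted p = 0.919) in the TAA group.

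Cell type markers moved with these results as well. In the TAA group, where 17.0% of all tested genes were called higher, 4 of 4 tested neutrophil markers were (median log2 fold change 2.05), which moved with Mmp8 and Mmp9, and their summed level was 0.801 to 4.15 in the control, 14.2 to 20.6 in the TAA and 3.10 to 4.90 scaled FPKM in the recovery mice. The Retnlg call was lost without control mouse 1 (log2 fold change 0.93), TAA mouse 2 (adjusted p = 0.0667, limma) or TAA mouse 3 (adjusted p = 0.0891). With quantile normalization Retnlg (0.57, adjusted p = 0.257) and Camp (0.71, adjusted p = 0.115) did not pass the test. Ly6g, a defining neutrophil marker, was at 0 in all control and recovery mice and under the filter. Markers of portal fibroblasts and mesothelium were called higher for 4 of 6 genes (sums of 2.15 to 2.94, 5.03 to 10.3 and 2.23 to 4.68 scaled FPKM in the control, TAA and recovery mice). Endothelial markers gave 0 of 6 DEGs by limma in the TAA group, with 1 at an unadjusted p under 0.05, and Kupffer cell markers 1 of 5 (Marco). Skeletal muscle genes were high in TAA mouse 3 only, and without that mouse 23 members were called between TAA and control mice and 17 between recovery and TAA mice. Without control mouse 1 the first count was 23. The part of any of these cell types in the changes of the proteases and inhibitors was not tested.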

How the data were processed

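Liver RNA of 9 mice (3 control, 3 TAA, 3 recovery) was sequenced as paired-end reads. The authors aligned them to mm10 with HISAT2 (v2.2.1), assigned them to genes with featureCounts (v1.5.0-p3) and deposited FPKM without scaling across libraries, versions being those of the submitters' processing notes. Strand use in the counting is not given in the sources used here. Fragment numbers given for single genes are estimates from FPKM, GENCODE M21 exon length and depth, itself inferred from the spacing of low FPKM values. In 56.5% to 64.3% of low values per library these steps gave whole fragments (within 0.08), where 16% would by chance, so no count model was used.

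Each library was scaled by its median-of-ratios factor. These factors were 0.827 to 0.878 in the control, 1.29 to 1.38 in the TAA and 0.893 to 0.907 in the recovery group. Groups were compared on log2(scaled FPKM + 0.1) by limma 3.58.1 (lmFit and trended eBayes, in R 4.3.3), with the 6 libraries of each comparison. Only genes averaging 0.1 FPKM or more over all 9 libraries, before scaling, were tested. Python 3.11.15, pandas 2.3.3, numpy 2.4.6 and matplotlib 3.10.9 prepared tables and figures. The fit was tested on simulated data. A DEG had an FDR < 0.05 and at least a 2-fold change. Groups came from the sample labels, and every column of the table was mapped to 1 mouse. The members, gene lists and marker lists were chosen with earlier results of these data known, so their counts are descriptions. Values per mouse are given for every member called in at least 1 comparison, for the tested TIMPs and for the most abundant member of each role. Of each list, up to 4 DEGs with the largest change and the most abundant gene were named. Mmp3, Mmp10, Mmp15, Mmp20, Mmp27, Mmp28, Adamts6, Adamtsl3, Adamtsl4, Chchd10, Gpnmb, Trem2, Vwf and the other overlapping genes were singled out after their values were seen. Motif shares were counted over RefSeq windows, and a member with several starts counted once. Alternatives to the pseudocount, filter, scaling, samples in a fit, variance trend, pairing of mice, test and set of mice were tried. The small RNA libraries, protein data and histology were not analysed here.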

Additional observations from a re-analysis of the deposited data

How the results depend on the processing

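The number of members called (24 for TAA against control mice, 20 for recovery against TAA mice and 1 for recovery against control mice) stayed within 1.5 times under a pseudocount of 0.01, with FPKM as deposited (28, 27 and 1), with all 9 libraries in the fit and without the variance trend. It fell to 11 and 10 in the first 2 comparisons with a pseudocount of 1, the first losing Adamts3, Adamts4, Adamts10, Adamts13, Adamts14, Adamts15, Adamtsl1, Adamtsl5, Mmp8, Mmp9, Mmp13, Mmp23 and Mmp24, and to 12 and 11 with a mean FPKM of at least 1, where 12 and 9 of the called members were no longer tested. Quantile normalization gave 15 in the first (13 higher, 2 lower) and 15 in the second. The Mmp7 call against the control group was lost with no filter on low values, with the replicate block and in a test against a fold change of 1.5 (0 called in each). Leaving out 1 mouse at a time gave 21 to 24, 17 to 22 and 0 to 2 members.

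Same-numbered mice did not deviate together (correlations of -0.07 to 0.125), so that the numbers were taken as names only. With the replicate block, 24, 20 and 0 members were called.

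Pathway list genes called in the recovery group against the control group (2) became 1 with a pseudocount of 0.01 or 1, no filter, quantile normalization, no trend or the replicate block, 4 with all 9 libraries, 0 in the test against a fold change of 1.5 and 1 without any single mouse. Where it became 1, the lost call was Plat and Serpine2 was kept. Marker genes called there (1, Epcam) became 0 with a pseudocount of 1, no filter, the replicate block or the test against a fold change of 1.5, and 0 to 2 without single mice.

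With FPKM as deposited the sign turned for Mmp19 in the TAA group (0.11) and, on recovery, for Adamts1 (-0.47), Mmp14 (-0.23) and Mmp19 (-0.23), as the scaling shift of 0.64 is larger than these differences. In the recovery group against the control group, differences near 0 turned sign for Adamts12 (-0.04) and Timp1 (-0.02) with a pseudocount of 0.01, and for Adamts12 (-0.17), Adamts14 (-0.01), Mmp23 (-0.05) and Timp1 (-0.02) with quantile normalization. Without single mice the values there ran from -0.39 to 0.02 for Adamts10, -0.30 to 0.09 for Mmp9, -0.07 to 0.42 for Mmp23, -0.28 to 0.09 for Mmp8, -0.37 to 0.25 for Adamts12, -0.01 to 0.50 for Mmp13 and -0.14 to 0.70 for Timp1. Low levels limit Timp1, Mmp3 and Mmp13, with fewer than 3 estimated fragments in at least 1 library, as well as Mmp8, at 0 in 3 libraries, and the control values of Mmp7, whose loci in the table differ from GENCODE M21. The cause of the other changes was not tested.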
